A study of Mus musculus with 6 samples.

Results

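The mitochondrial genome is copied and read by proteins that are themselves encoded in the nucleus. The results below describe the transcripts of 10 such nuclear genes in lung group 2 innate lymphoid cells (ILC2s): *Tfam*, *Polrmt*, *Tfb2m*, *Tefm*, *Tfb1m*, *Polg*, *Twnk*, *Ssbp1*, *Lrpprc* and *Slirp*. The genes were chosen by symbol, as factors for copying mitochondrial DNA, transcribing it and keeping its RNA stable, and all 10 are among the 16381 genes that the deposited table lists. All 10 also passed the filter on low values, with which 14419 genes were tested.

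ILC2s are lymphocytes of barrier tissues that lack antigen receptors and release type 2 cytokines. Bulk RNA sequencing compared ILC2s that had been given melatonin with ILC2s given its solvent DMSO (vehicle, titled control in the labels), with 3 libraries in each group. All 6 libraries came from wild-type cells. The cells were activated ILC2s, sorted from the lungs of BALB/c mice aged 6 to 8 weeks that had been given IL-33 intranasally at 0.5 µg per day for 3 days, and were then cultured for 24 h with melatonin at 250 µM or with vehicle. Both groups therefore share the protocol of IL-33 challenge, sort and culture, which does not mean the same mice or the same sort. No library of unchallenged cells was analysed here. The labels do not say whether the 3 libraries of a group came from separate mice or cultures, so p-values measure the spread between these libraries, which may be technical. By the sex-linked transcripts given below, the melatonin libraries did not all come from the same mice. In bulk RNA, fewer cells of a type cannot be told apart from less RNA per cell.

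Transcription of mitochondrial DNA needs a single-subunit RNA polymerase, POLRMT, which TFAM positions at the promoter and TFB2M helps to open the DNA, while TEFM keeps the polymerase moving. TFAM also packages the mitochondrial genome into nucleoids. Replication is carried out by the polymerase POLG behind the helicase TWINKLE, the product of *Twnk*, on single strands coated by SSBP1. The long polycistronic RNA is cut into pieces, and LRPPRC in complex with SLIRP holds the resulting mRNAs, protecting them from decay and favouring their polyadenylation.

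Values are normalized counts, meaning estimated read counts that the authors scaled for library size. The libraries held between 17056267 and 20511711 estimated counts, and the smallest member value, *Tfb1m* in melatonin replicate 1, stood for 129 of them. The ILC2 label was checked against 11 markers, all of which were detected: *Gata3*, which specifies the lineage, averaged 19365 ± 321 in vehicle and 20469 ± 3605 with melatonin (SD, n = 3 each), *Il1rl1*, which encodes the IL-33 receptor, was higher with melatonin by 0.63 on the log2 scale and *Il7r*, used in the sort, was lower by −1.06 (limma, adjusted p = 0.0113 and 0.013). Of the 11 markers 2 were called higher and 6 lower, with a median log2 difference of −0.77, and the lower ones included *Thy1* at −2.88, *Klrg1* at −2.16 and *Areg* at −1.69. Summed T cell markers ran from 1196 to 1323 in vehicle and from 458 to 867 with melatonin, on 2 of 6 genes, since *Cd4*, *Cd8a*, *Cd8b1* and *Cd5* are not listed. Summed markers of macrophages, dendritic cells and granulocytes ran from 1164 to 1374 against 256 to 699 (7 of 8 genes listed), those of endothelium and fibroblasts from 1001 to 1066 against 310 to 416 (*Pecam1* alone of 5), those of B cells from 289 to 322 against 131 to 162 (2 of 5) and those of NK cells from 203 to 267 against 19.6 to 30.6 (4 of 5). Lung epithelial markers, with all 5 genes listed, ran from 890.5 to 2133 against 1039 to 1237, a sum in which *Epcam* rose by 0.72 while *Sftpc* ran from 122 to 389 against 3.02 to 6.54 and *Scgb1a1* from 21.5 to 1045 against 0 to 1.01 (limma, both called lower). Mast cell and basophil markers, with 3 of 5 listed, ran from 2.81 to 37.3 against 1.87 to 49.3. The sort, per the methods, took CD45+ ST2+ CD127+ cells that lacked lineage markers of T, B, NK and myeloid cells, and the part of such cells in the members' results was not tested. *Xist*, the RNA of the inactive X chromosome, stood at 579 and 1091 in melatonin replicates 2 and 3 and at or below 13.6 in the rest, and the Y-linked genes *Ddx3y*, *Eif2s3y*, *Kdm5d* and *Uty* were at 0 in those same 2 libraries but between 298 and 1363 in the other 4, although the methods name female mice. By these genes the melatonin group held libraries of different sex, and the fold change of each member was also computed without those 2 libraries. All 10 members are on autosomes. The labels number the melatonin libraries and the vehicle libraries in separate runs, so any batch that follows that numbering cannot be told apart from treatment.

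The 5′ ends of the members show which of them share a motif in their promoters. In the 250 bases before each RefSeq transcription start (assembly GRCm38.p6, which differs from the GRCm39 coordinates used for the genes themselves), 4 motifs were searched on both strands: CCGGAAG of the ETS factor GABPA, GCGCNTGCG of NRF1, the E-box CACGTG and the core of the antioxidant response element, TGACNNNGC. All 10 members had an entry, and *Twnk* had 2. Shown are the windows of *Slirp*, *Lrpprc* and *Polg*, whose transcripts changed, and of *Tfam*, the packaging factor, each 5′ to 3′ on the gene's strand and ending at the base before the start, with the GABPA letters in either orientation in capitals.
Slirp (chr12:87443646-87443895, plus strand): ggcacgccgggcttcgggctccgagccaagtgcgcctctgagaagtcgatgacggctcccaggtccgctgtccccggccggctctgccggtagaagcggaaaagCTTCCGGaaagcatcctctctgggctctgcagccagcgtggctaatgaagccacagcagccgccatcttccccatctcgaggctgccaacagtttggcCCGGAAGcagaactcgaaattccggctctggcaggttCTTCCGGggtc
Lrpprc (chr17:84790787-84791036, minus strand): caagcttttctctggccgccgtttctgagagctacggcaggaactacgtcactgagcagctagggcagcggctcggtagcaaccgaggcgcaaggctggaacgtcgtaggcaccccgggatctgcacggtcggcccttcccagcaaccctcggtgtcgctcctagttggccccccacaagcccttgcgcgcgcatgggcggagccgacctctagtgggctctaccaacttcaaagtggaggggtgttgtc
Polg (chr7:79466274-79466523, minus strand): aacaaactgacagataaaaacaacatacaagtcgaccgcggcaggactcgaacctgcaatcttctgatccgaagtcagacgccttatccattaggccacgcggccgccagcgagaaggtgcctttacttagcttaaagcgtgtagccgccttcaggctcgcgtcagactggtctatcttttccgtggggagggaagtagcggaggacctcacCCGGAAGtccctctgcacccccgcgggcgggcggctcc
Tfam (chr10:71238045-71238294, minus strand): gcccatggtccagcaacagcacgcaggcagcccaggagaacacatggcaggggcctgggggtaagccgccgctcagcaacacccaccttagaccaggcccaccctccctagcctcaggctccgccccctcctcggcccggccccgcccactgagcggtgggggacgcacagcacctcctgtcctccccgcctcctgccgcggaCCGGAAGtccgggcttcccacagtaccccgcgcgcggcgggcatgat

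The GABPA letters occurred in 7 of the 10 members, beginning at −47 in *Tfam*, −43 in *Polrmt*, −9 in *Tefm*, −38 in *Polg* and −47 in *Ssbp1*, where −1 is the last base before the start. *Slirp* had 3, at −146, −48 and −11, and *Twnk* had a pair of them at −110 and −66. All *Twnk* matches, of any motif, lay in its downstream window (chr19:45006308-45006557). Its upstream window (chr19:45005413-45005662) held none of the motifs searched. These letters were held by 6.91% of all 32851 promoter windows of RefSeq and by 16.2% of the 9841 tested genes with an entry. *Lrpprc*, *Tfb1m* and *Tfb2m* held none. The NRF1 letters were in *Twnk* alone, at −45, against 5.19% of all windows and 12.7% of tested genes. The E-box and the antioxidant core were in none of the 10, against 6.02% and 10.2% of all windows and 9.96% and 14.0% of tested genes. *Polg*, which was higher with melatonin, and *Slirp*, which was lower, both held the GABPA letters, while *Lrpprc*, also lower, did not. A match describes the letters in these windows and not a bound factor. With shares this low among tested genes, the absence of the E-box or the antioxidant core from 10 genes says nothing particular of them. Only these exact letters were searched.

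With melatonin, the transcripts of both partners of the RNA-binding complex were lower and that of the DNA polymerase was higher. *Slirp* fell by 36.7% and *Lrpprc* by 24.5% on the means of 3 libraries, and *Polg* rose by 32.9%. No other member passed the threshold, an adjusted p under 0.05 from limma with Benjamini-Hochberg adjustment over all 14419 genes. Of the 10 members, 3 were thus called, 1 higher and 2 lower, while 49.2% of all genes tested were called, 24.5% higher and 24.7% lower, so the members were called no more often than genes at large. The groups did not overlap in 1 member on the higher side, against 30% of all genes, and in 4 on the lower side, against 30.3%. Of the 10 log2 fold changes 8 were negative, and their median was −0.25 against −0.0046 over all genes tested.

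**Figure D1:**
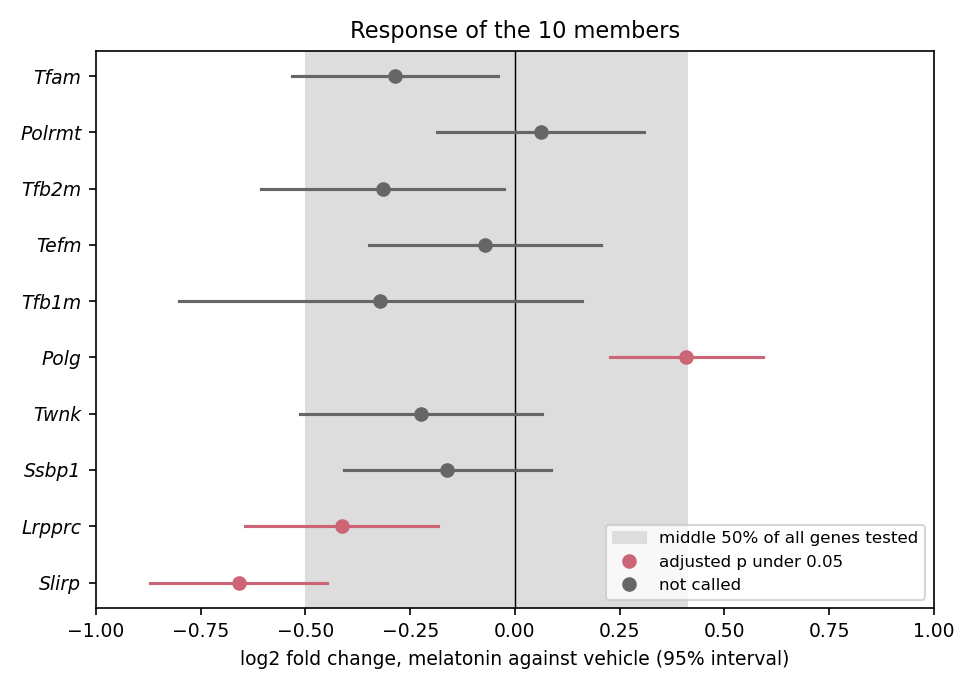
Log2 fold change of each of the 10 members, melatonin against vehicle, on the log2(normalized count + 1) scale, with the limma estimate as a point and its 95% interval as a line (3 libraries per group); the grey band is the middle 50% of all genes tested, from −0.50 to 0.41. *Slirp* and *Lrpprc* lie left of 0 and *Polg* lies right of it with adjusted p under 0.05, and of the 7 grey members only *Tfam* and *Tfb2m* have intervals that leave out 0.

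Among the transcription factors, *Tfam* (chr10:71061287-71074110 of GRCm39, the build of all gene positions here, minus strand) stood at 1406, 1451 and 1332 in vehicle replicates 1, 2 and 3 and at 979.5, 1202 and 1273 in melatonin replicates 1, 2 and 3. Every melatonin library was below every vehicle library, and melatonin replicate 1 was the lowest. The difference was −0.29 on the log2(normalized count + 1) scale, which is used for all fold changes here (SE 0.11, 95% interval −0.53 to −0.04), and missed the threshold (limma, adjusted p = 0.0549). Its p lay close to the threshold, and 7 of 14 other settings put it below, with adjusted p between 0.0051 and 0.111 over the 14 and up to 0.162 when a library was left out (vehicle replicate 2).

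*Polrmt* (chr10:79571957-79582420, minus strand), which encodes the polymerase itself, gave 889.5, 779.5 and 936 in vehicle and 958, 954 and 807 with melatonin. The groups overlapped, and the difference was 0.06 with an interval of −0.19 to 0.31 (limma, adjusted p = 0.663).

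*Tfb2m* (chr1:179355610-179374548, minus strand), the initiation factor that opens the promoter, gave 339.8, 408 and 362 in vehicle and 284, 333 and 275 with melatonin. The highest melatonin library, replicate 2, was just below the lowest vehicle library, replicate 1. The difference was −0.32 (SE 0.13, 95% interval −0.61 to −0.02) and did not pass (limma, adjusted p = 0.0686). *Tfb2m* shares 1187 bases at 99.3% identity with *Gm1818*, which was itself listed with a mean of 212 and a log2 difference of −0.17, so the authors' division of reads between them leaves the *Tfb2m* level uncertain. A longer match, of 1836 bases, is to *Gm59684*, which was not analysed here.

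*Tefm* (chr11:80027498-80033839, minus strand), the elongation factor, varied little. Its values were 245, 239 and 227 in vehicle and 211, 233 and 232 with melatonin, a difference of −0.07 with an interval of −0.35 to 0.20 (limma, adjusted p = 0.651). The spread within groups was 3.87% and 5.49% of the mean (coefficient of variation), and the groups overlapped. The difference was −0.025 without melatonin replicate 1 and −0.16 with that library alone against vehicle.

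*Tfb1m* (chr17:3563847-3608190, minus strand) is a paralogue of *Tfb2m* whose product methylates the 12S rRNA of the mitochondrial ribosome. It was even across vehicle, at 208, 201 and 220.3, and uneven with melatonin, at 120.4, 177 and 220.2. Melatonin replicate 1 was far below the vehicle libraries and replicate 3 was level with the highest of them, a spread of 29% of the mean against 4.77% in vehicle. The difference was −0.32 with the widest interval of the 10, −0.80 to 0.16 (limma, adjusted p = 0.235), and 31.0% of its exonic bases lie opposite *Tiam2*, which was barely expressed (mean 17.0).

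**Figure D2:**
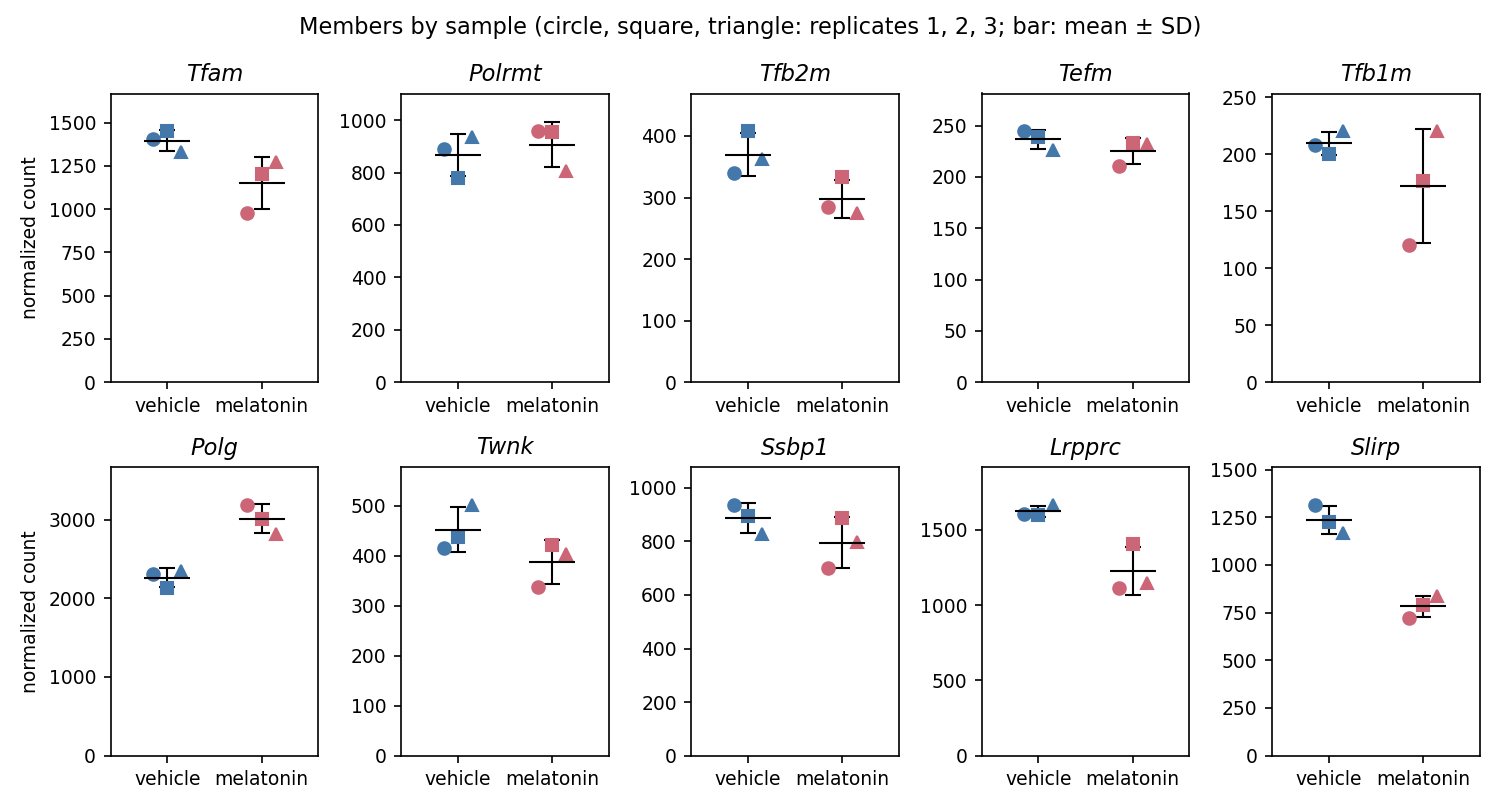
Normalized counts of the 10 members in each library, with vehicle in blue and melatonin in red; circles, squares and triangles are replicates 1, 2 and 3, the long bar is the mean and the whiskers the SD (n = 3), and every axis starts at 0. *Polg* separates upwards and *Slirp* and *Lrpprc* downwards, *Tfam* and *Tfb2m* separate downwards by less, and the melatonin libraries of *Tfb1m* run from 120 to 220.

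In the replication group, *Polg* (chr7:79095974-79116110, minus strand), which encodes the catalytic subunit of the mitochondrial DNA polymerase, was the most abundant member by normalized count. Its values were 2309, 2131 and 2349 in vehicle and 3189, 3012 and 2821 with melatonin, means of 2263 ± 116 and 3007 ± 184 (SD, n = 3 each). Every melatonin library was above every vehicle library, and melatonin replicate 1 was the highest. *Polg* rose by 0.41 (SE 0.08, 95% interval 0.23 to 0.59, limma, adjusted p = 0.00341). The exact permutation test of 3 libraries against 3 gave p = 0.1 for *Polg*, the smallest two-sided p this design allows.

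*Twnk* (chr19:44994102-45001204, plus strand), the helicase gene, was not called. It stood at 416, 438 and 502 in vehicle and 338, 421 and 404 with melatonin, with melatonin replicate 2 inside the vehicle range, and the difference was −0.22 with an interval of −0.51 to 0.07 (limma, adjusted p = 0.174). It was −0.13 without melatonin replicate 1 and ran from −0.41 to −0.090 over the other settings. *Ssbp1* (chr6:40448286-40524298, plus strand), the single-strand binding protein gene, overlapped as well. It gave 937, 896 and 826 in vehicle and 700.1, 888 and 799 with melatonin, a difference of −0.16 with an interval of −0.41 to 0.09 (limma, adjusted p = 0.247). In both genes melatonin replicate 1 was the lowest of the 6 libraries.

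In the RNA stability group, *Lrpprc* (chr17:85012670-85098279, minus strand), which encodes a pentatricopeptide repeat protein, was very even in vehicle, at 1604, 1600.3 and 1668. With melatonin it stood at 1117, 1409 and 1150.0, each value below all of vehicle and replicate 2 nearest to it. The means were 1624 ± 38.3 and 1225 ± 160.2 (SD, n = 3 each). *Lrpprc* fell by 0.41 (SE 0.10, 95% interval −0.64 to −0.18, limma, adjusted p = 0.00952).

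*Slirp* (chr12:87490572-87506290, plus strand), the small RNA-binding partner of LRPPRC, changed most among the members. It gave 1316, 1226 and 1167 in vehicle and 724, 788 and 836 with melatonin, means of 1236 ± 75 and 783 ± 56.1 (SD, n = 3 each). The groups stood well apart, since the highest melatonin library, replicate 3, reached 836 and the lowest vehicle library, replicate 3, 1167. *Slirp* fell by 0.66 (SE 0.09, 95% interval −0.87 to −0.45, limma, adjusted p = 6.46e-04). The exact permutation p was 0.1, the smallest possible, for *Slirp* and for *Lrpprc*.

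Several members lie across another gene on the opposite strand, and the sources used here do not state that strand was used in counting. *Slirp* is the main case, because 53.5% of its annotated exonic bases, and 86.0% of the transcript model used for its length, match exons of *Snw1*, a splicing factor gene with a mean of 2148. *Snw1* rose by 0.41 (limma, adjusted p = 0.0019), the opposite direction to *Slirp*. *Twnk* faces *Mrpl43*, which encodes a mitochondrial ribosomal protein, over 29.1% of its exonic bases, and *Mrpl43* fell by 0.35 (limma, adjusted p = 0.035). *Polg* faces *Fanci*, a DNA repair gene with a difference of 0.05 that did not pass (limma, adjusted p = 0.69), over 9.29%, and *Tfb2m* faces *Cnst*, which rose by 1.09 (limma, adjusted p = 2.43e-04), over 9.25%. *Ssbp1* faces *Or9a7*, which is not listed, over 17.7%. *Lrpprc*, *Tfam* and *Polrmt* had no such partner with shared exons.

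Within a library, a ratio of 2 members does not depend on scaling, and 4 pairs of functional partners were compared by the exact two-sided permutation test, whose smallest p is 0.1. The log2 ratio of *Polg* to *Twnk* was 2.47, 2.28 and 2.22 in vehicle and 3.23, 2.84 and 2.80 with melatonin. These groups did not overlap, and the ratio was higher by 0.63 with melatonin (exact p = 0.1). The log2 ratio of *Lrpprc* to *Slirp* was 0.29, 0.38 and 0.52 in vehicle and 0.62, 0.84 and 0.46 with melatonin, an overlap, with a difference of 0.25 (exact p = 0.2). Leaving out a library moved this difference between 0.15 (without melatonin replicate 2) and 0.34 (without melatonin replicate 3, exact p = 0.1). *Tfam* to *Polrmt* differed by −0.35 (exact p = 0.2), between −0.19 without melatonin replicate 1 and −0.51 without melatonin replicate 3, and the paralogues *Tfb1m* and *Tfb2m* by −0.0061 (exact p = 1). This permutation test could not take any of the 4 below 0.05, with or without adjustment.

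The members differed widely in level. Per kilobase of coding sequence, the mean normalized count in vehicle was 3679 for *Slirp*, 1997 for *Ssbp1*, 1916 for *Tfam*, 619.9 for *Polg*, 389 for *Lrpprc* and 311 for *Tfb2m*. Below them came *Polrmt* at 239.8, *Twnk* at 220.03, *Tefm* at 217 and *Tfb1m* at 203. *Ssbp1* and *Tfam* overlapped, and so did each neighbouring pair from *Polrmt* down to *Tfb1m*, while the other neighbours did not overlap between their 3 libraries. With melatonin, *Slirp* at 2329 per coding kilobase still led, *Polg* stood at 824 and *Lrpprc* at 293, and *Polrmt* and *Tfb2m*, at 250.3 and 250.2, overlapped. The order depends on the length used: per kilobase of transcript in GENCODE M39, whose *Slirp* model is mostly untranslated and faces *Snw1*, *Slirp* led in vehicle with 442 ahead of *Lrpprc* with 347, and *Polg* led with melatonin with 384.

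Counts for the related lists below stand against 24.5% of all genes tested called higher and 24.7% called lower, and shares near these say nothing particular of a list. Of 13 further genes for copying and repair of mitochondrial DNA, 5 rose and 3 fell, with a median of −0.14. The risers included *Mpv17*, an inner membrane protein gene tied to mitochondrial DNA depletion, by 0.70, the primase and polymerase gene *Primpol* by 0.68 and the nuclease gene *Exog* by 0.51. The nuclease gene *Endog* fell by 1.09, the nucleoid-associated ATPase gene *Atad3a* by 0.89 and the mitochondrial topoisomerase gene *Top1mt* by 0.87 (limma, adjusted p between 2.13e-04 and 0.0077 for these 6). *Polg2*, the accessory subunit that partners POLG, did not pass and had a difference of −0.30 (limma, adjusted p = 0.154).

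The supply of nucleotides for mitochondrial DNA, 11 genes, held 5 that rose and 3 that fell, against the same 24.5% and 24.7% of all genes, with a median of 0.35. Among those that rose were *Samhd1*, which degrades deoxynucleotides, by 1.26 and the mitochondrial deoxynucleoside kinase genes *Tk2* and *Dguok* by 1.03 and 0.76. *Nme4*, a mitochondrial nucleoside diphosphate kinase gene, fell by 1.45, *Suclg1*, for a subunit of succinyl-CoA ligase, by 0.65 and the ribonucleotide reductase subunit gene *Rrm1* by 0.25 (limma, adjusted p between 8.72e-05 and 0.034 for these 6). The 5 that rose became 3 without vehicle replicate 2 or vehicle replicate 3. In the MTERF family with *Mrpl12*, 6 genes, 4 rose, *Mterf3* by 0.63, *Mterf1a* by 0.46, *Mterf4* by 0.39 and *Mterf1b* by 0.67, and *Mrpl12*, whose product can bind POLRMT, fell by 0.47 (limma, adjusted p between 0.0023 and 0.038 for these 5). *Mterf1a* and *Mterf1b* are close copies whose reads the authors' counting may have divided, and the 4 calls became 2 without vehicle replicate 1 and 1 without vehicle replicate 2, vehicle replicate 3 or melatonin replicate 2. They also became 2 under upper quartile scaling, the replicate block, correction for transcript length, correction for GC content and melatonin library 1 alone, and the *Mrpl12* call was lost under correction for GC content.

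Downstream of transcription, 20 genes for cutting, tailing and degrading mitochondrial RNA held 1 that rose and 8 that fell, against 24.5% and 24.7% of all genes, with a median of −0.24. *Tbrg4*, a FASTK family gene, fell by 1.16, *Hsd17b10* and *Prorp*, both for subunits of mitochondrial RNase P, by 0.76 and 0.67, and *Fastk* itself rose by 0.26 (limma, adjusted p between 2.24e-04 and 0.026). *Hsd17b10* is on the X chromosome, with 1411, 1427 and 1634 in melatonin replicates 1, 2 and 3, and whether sex had a part in its fall was not tested. Leaving out vehicle replicate 1 or 2 took the 8 to 5. The single riser fell out without vehicle replicate 1, vehicle replicate 2 or melatonin replicate 2. It also fell out under upper quartile scaling, without the mean-variance trend and with the replicate block. The count of risers was 2 without vehicle replicate 3 or melatonin replicate 1, with sample weights and with voom. *Trmt10c*, the remaining RNase P subunit gene, and the poly(A) polymerase gene *Mtpap* were not called, with differences of 0.08 and −0.03. Of the matrix proteases, *Lonp1*, whose product can degrade TFAM, fell by 0.71 and the peptidase gene *Clpp* by 0.73, and *Clpx*, for its unfoldase partner, rose by 0.35, a call lost without vehicle replicate 1 and under correction for transcript length (limma, adjusted p = 2.66e-04, 3.32e-04 and 0.0131).

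Regulators known for their part in mitochondrial biogenesis or at promoters of such genes gave 0 higher and 6 lower of 11 tested by limma, against 24.5% and 24.7% of all genes, with a median of −0.46. The 6 became 4 without the mean-variance trend and without vehicle replicate 1, vehicle replicate 3 or melatonin replicate 2, and 1 was called higher under correction for transcript length. The zinc-finger factor gene *Yy1* fell by 1.16, *Gabpb2*, for a partner subunit of GABPA, by 0.98, *Sp1* by 0.61, the coactivator gene *Ppargc1b* by 0.54 and *Myc* by 0.53 (limma, adjusted p = 6.40e-04, 7.12e-04, 0.0277, 0.0464 and 0.008). *Nrf1* and *Gabpa*, which encode the factors whose motifs were searched, differed by 0.11 and −0.08 and were not called (limma, adjusted p = 0.37 and 0.55), and *Ppargc1a* is not among the listed genes.

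The mRNAs of the mitochondrial genome, the products of this machinery, had negative fold changes in 13 of 13 cases, and 10 fell and 0 rose by limma, against 24.7% and 24.5% of all genes, with a median of −1.18. *mt-Nd3*, for a complex I subunit, had the largest difference, from 203, 192 and 218 in vehicle to 22.5, 29.8 and 87.4 with melatonin (−2.36, limma, adjusted p = 0.00219). *mt-Co1*, for a cytochrome c oxidase subunit, had the smallest, from 17424, 17821 and 11453 to 16779, 9724 and 15279 (−0.17, limma, adjusted p = 0.552), and its groups overlapped. The sum over the 13 ran from 78705 to 112532 in vehicle and from 41340.4 to 64645 with melatonin. Because these mRNAs are cut from long polycistronic RNA, the 13 are not independent of each other, which the shares of all genes do not allow for.

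**Figure D3:**
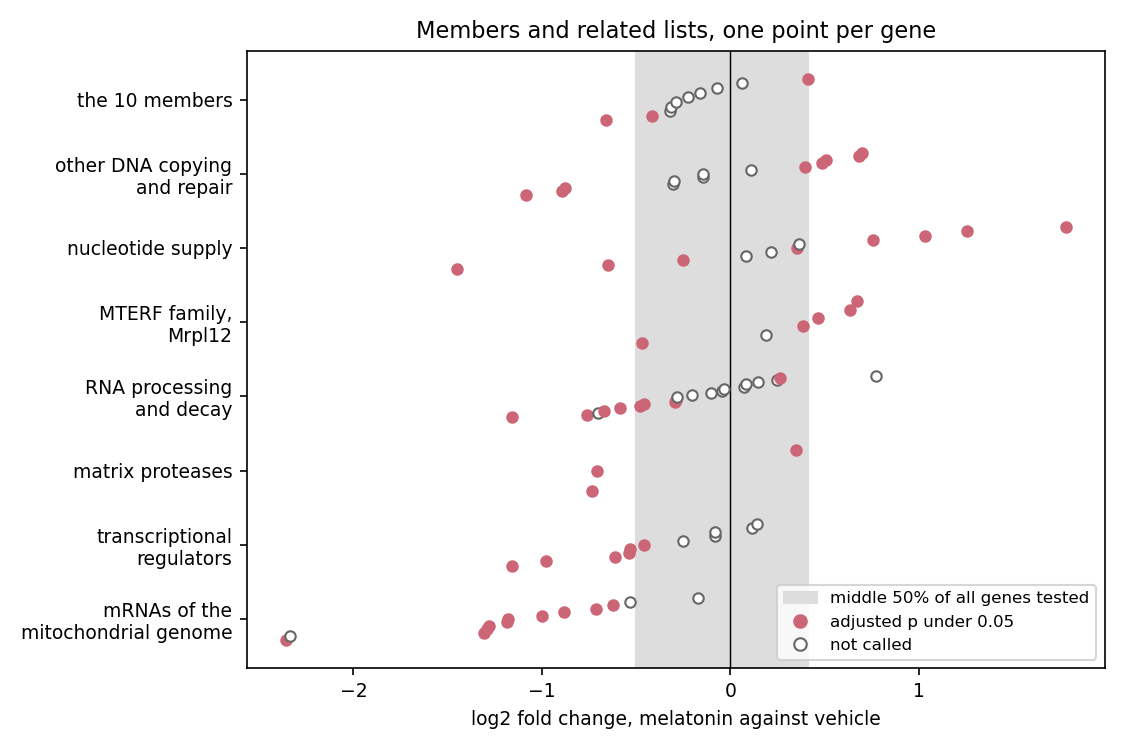
Log2 fold changes, melatonin against vehicle, of the members and of 7 related gene lists, one point per gene, filled red where the limma adjusted p was under 0.05 and open where it was not; the grey band is the middle 50% of all genes tested. The members lie between −0.66 and 0.41, the lists for copying, repair and nucleotide supply spread to both sides, and all 13 mitochondrial mRNAs lie left of 0.

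The member calls were repeated around the libraries that differ in *Xist* and Y-linked transcripts. Melatonin replicate 1 alone against the 3 vehicle libraries, a fit in which the lone library is assumed to vary like the vehicle libraries, gave 0.50 for *Polg*, −0.54 for *Lrpprc* and −0.77 for *Slirp*, all called, and also called *Tfam* at −0.51, *Tfb1m* at −0.79 and *Ssbp1* at −0.34, so that 5 members were lower in place of 2 (limma, adjusted p = 0.0051, 0.0091 and 0.041 for these 3). Without melatonin replicate 1, the remaining 2 melatonin libraries gave 0.37 for *Polg*, −0.35 for *Lrpprc* and −0.60 for *Slirp*, again called, and *Tfam* moved to −0.17, *Ssbp1* to −0.072 and *Tfb1m* to −0.085, none of them called (limma, adjusted p = 0.088, 0.54 and 0.65). Among the melatonin libraries, the one with Y-linked transcripts was thus the lowest in *Tfam*, *Tfb1m* and *Ssbp1*. The vehicle libraries also held Y-linked transcripts, and whether sex had a part in this was not tested. *Polg*, *Lrpprc* and *Slirp* kept their direction and their call in all 14 alternative settings and with each of the 6 libraries left out.

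**Figure D4:**
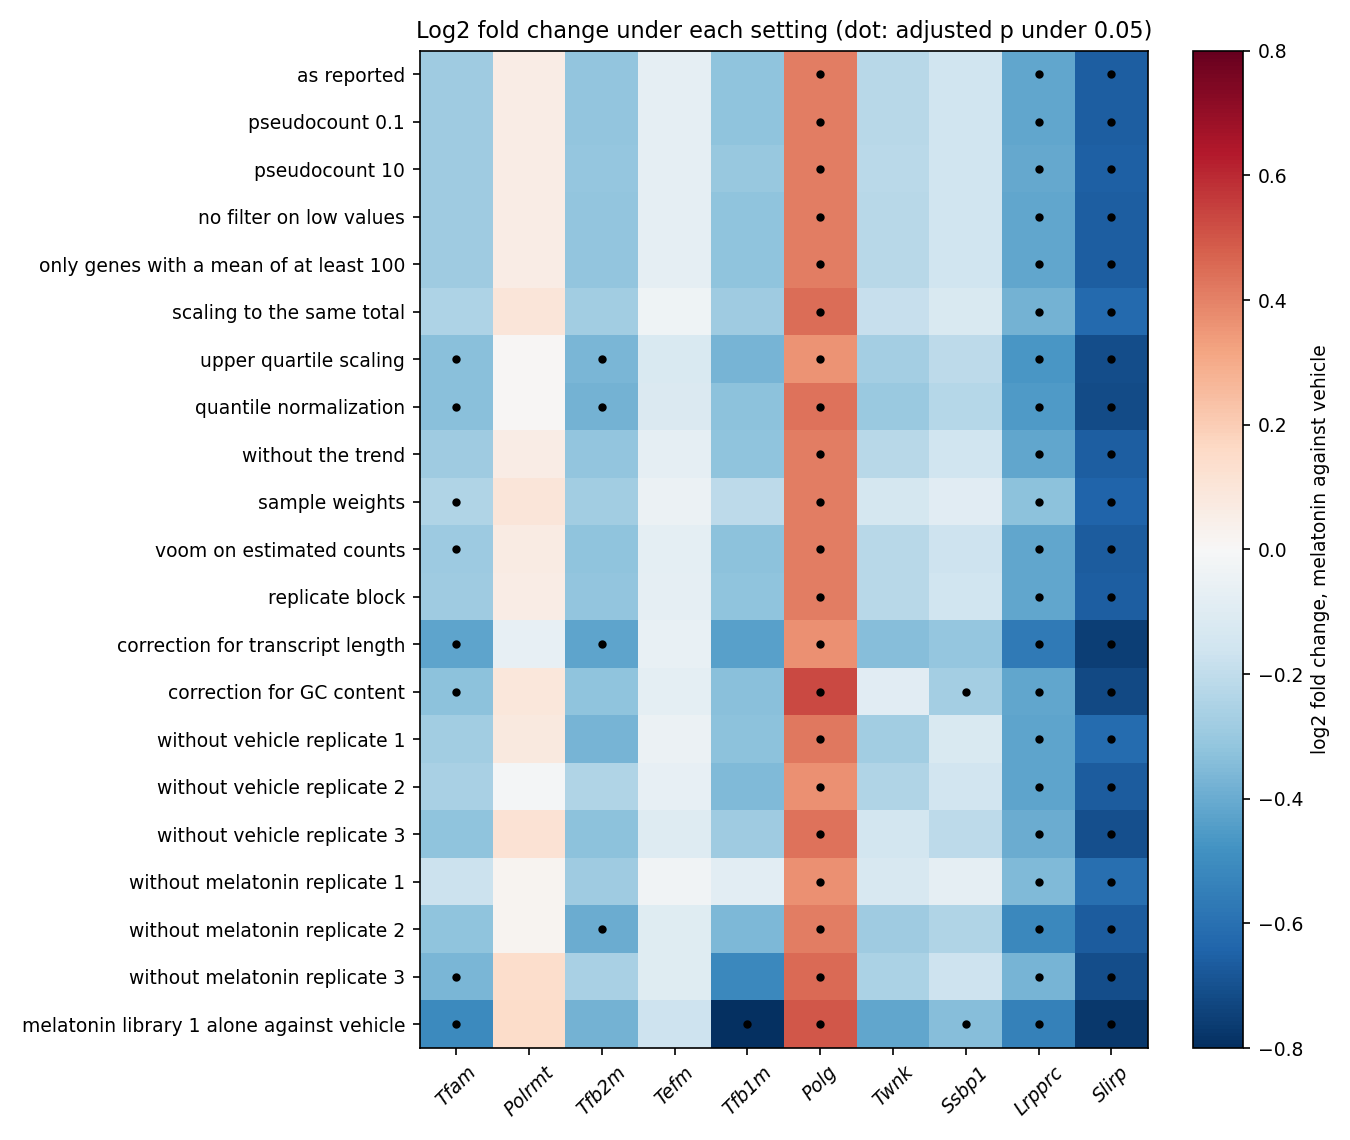
Log2 fold change of each member (columns) under the reported fit, 14 alternative settings and 6 fits that leave out a library (rows), with red for higher and blue for lower with melatonin and a dot where the adjusted p was under 0.05. *Polg*, *Lrpprc* and *Slirp* carry a dot in every row, *Tfam* in 8 rows, and *Polrmt* stays near 0.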

How the data were processed

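RNA was measured in 6 libraries made from cDNA. According to the methods, the authors trimmed reads in Partek Flow 12.9.0, aligned them with STAR 2.7.8a to mm39, assigned them to genes of Gencode M33 by the E/M algorithm of Partek and applied median ratio scaling. Each deposited value is a signal: an estimated count over the size factor of its library. Because 64.8% of them were whole multiples of the value of 1 read (tolerance 0.01), whole reads were not recovered and no count model was the main test. The members and all lists were chosen with earlier results of these data known. The main test was limma 3.58.1 (R 4.3.3, mean-variance trend) on log2(value + 1), on genes that reached 10 in 1 library or more, adjusted by Benjamini-Hochberg with a threshold of 0.05. Gene positions come from GENCODE M39 (16334 of 16381 identifiers matched), promoters from RefSeq, and near-identical copies (at least 90% over 100 bases) from blast 2.17.0. Named genes were all members and, per list, up to 3 rises and 3 falls that passed, averaged 100 or more and did not overlap, the mitochondrial mRNAs with the largest and smallest change, and the regulators and markers fixed by name; *Polg2*, *Trmt10c*, *Mtpap*, *Mterf1b* and the genes facing members were added after their values were seen. Libraries of a group differed by more than counting noise (chi-square per degree of freedom 6.16 to 35.3). The limma fit was tested on simulated data whose planted changes were larger than those of the members, so that test does not cover changes of the members' size. Alternatives were other pseudocounts, filters, scalings and limma settings, voom, corrections for length and GC content, a replicate block, and libraries left out. No column of the table was left unused. A gene withheld for evaluation was left out of the lists and is not reported here.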

Additional observations from a re-analysis of the deposited data

How the results depend on the processing

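Of the members, 1 was called higher in all 14 alternatives and 2 or 3 were called lower in 9 of them. The count of lower calls moved to 4 under upper quartile scaling, quantile normalization, correction for transcript length and correction for GC content, and to 5 with melatonin library 1 alone against vehicle, and it ran from 2 to 3 with each library left out. The calls gained were *Tfam* in 7 alternatives, *Tfb2m* in 3, *Ssbp1* in 2 and *Tfb1m* in 1, and leaving out melatonin replicate 2 added *Tfb2m* and leaving out melatonin replicate 3 added *Tfam* (limma, adjusted p = 0.047 and 0.028). *Polg* ran from 0.36 to 0.53, *Lrpprc* from −0.56 to −0.33 and *Slirp* from −0.77 to −0.62 over the 14, all called. *Polrmt* turned to −0.063 under correction for transcript length and ran from −0.014 to 0.14 with a library left out, without a call. The log2 ratio of *Tfb1m* to *Tfb2m* turned to 0.0023 with a pseudocount of 10 and ran from −0.26 to 0.20 with a library left out. Same-numbered libraries did not deviate together (r between −0.054 and 0.0064). Deviations from means of 3 libraries cannot exclude a pairing, so whether the numbers pair the libraries is not known. With a replicate block 6438 genes were called in place of 7094, and the 1 higher and 2 lower member calls stood (limma, adjusted p = 0.012 for *Polg*, 0.021 for *Lrpprc* and 0.0049 for *Slirp*), and the paired sign-flip test of *Polg* to *Twnk* gave its smallest possible exact p, 0.25. The causes of these shifts were not tested. The counts are of reads amplified from a small RNA input, whose amount the methods and the labels give differently, so they do not bound the sampling error of the original molecules. In addition, 3 libraries a group allow no exact p below 0.1, transcript levels say nothing of protein or of mitochondrial DNA copies, and antisense partners of *Slirp* and *Twnk* and the copy of *Tfb2m* limit what their values stand for.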
